A study of Mus musculus with 6 samples.

Results

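The genes described here are those whose symbols mark them as parts of the cell division cycle and of DNA replication, measured in the inguinal fat of mice that gained much or little weight on a high-fat diet. Members were taken by symbol from the array's gene annotation (cyclins, Cdk, Cdkn, Cdc, Cenp, Mcm, Orc, Gins, E2f, Rfc and replicative polymerase families, with single genes such as Myc, Pcna, Top2a and Birc5), without Cdkn1c and Cdc42. The rule itself uses symbols and no measured value. The rule named 132 genes, of the 13840 genes that carry a single symbol on the array, and 102 of them had a value on all 6 arrays and were tested. Over the whole series 8596 genes and 15821 of 33012 probes had such values.

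All mice were male C57BL/6J mice, an inbred strain, and all were fed a diet high in saturated fat for 4 weeks from 8 weeks of age. The high gainers and the low gainers differed in how much weight they put on, not in genotype or diet. The RNA of 8 high gainers formed a first pool and that of 8 low gainers a second, and 3 one-color arrays were run on either pool. The 3 arrays of a pool are therefore technical repeats, n counts arrays, and every SD, interval and p-value below covers the spread between arrays and not that between mice.

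A cell that enters division first raises its D and E cyclins, whose kinases inactivate the Rb family of pocket proteins and so release E2F factors, which switch on the genes for DNA synthesis. Origins are then licensed with the Mcm helicase and copied by DNA polymerases, after which cyclin B and Cdk1, the Aurora and Polo kinases and the anaphase promoting complex carry the cell through mitosis. Mature adipocytes do not divide, so that in fat depots these transcripts are usually attributed to precursor, blood vessel and immune cells.

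A gene was called different at an adjusted p below 0.01 from limma with Benjamini-Hochberg adjustment over all 15821 probes, together with a fold of at least 1.5. One of the 102 genes passed, Myc, which was lower in high gainers, or 0.98%, where the same rule called 6.5% of all tested probes (3.99% lower and 2.5% higher). None was called higher in high gainers by limma. The analysis of variance of the study's methods, unadjusted, called 4 lower (3.92%, against 4.29% of all tested probes) and none higher (against 3%), where it called 7.29% of all probes in either direction. For 73 of the 102 genes (71.6%) the 95% interval of the ratio lay wholly within 1.5-fold in both directions, which was so for 58.1% of all tested probes. Most of the 102 genes, like most of all probes, therefore had intervals that left out a change of 1.5-fold between these pools.

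Among smaller differences, more genes were lower in high gainers than higher. The share of higher genes lay below that of all probes under each rule given here. The share of lower genes lay above that of all probes under some rules and below it under others. At an unadjusted limma p below 0.05, 17 genes were lower (16.7%, against 13.6% of all tested probes) and 7 were higher (6.86%, against 17.4%), 23.5% in all where all probes gave 31%. At an adjusted limma p below 0.05 with no fold threshold, 7 genes were lower (6.86%, against 7.72% of all tested probes) and 1 was higher (0.98%, against 8.87%), or 7.84% in all against 16.6%. The lower genes were Myc, E2f2, Mcm5, Mcm4, Pold1, Cdc20 and Cenpa, and the higher gene was Cdkn1a. All 3 high gainer arrays lay below all 3 low gainer arrays for 29 genes (28.4%, against 16.3% of all probes), and above them for 15 (14.7%, against 20.3%), 43.1% in all against 36.6%. A fold of 1.5 or more, with no test, was reached by 6 lower genes (5.88%, against 6.18%) and 1 higher gene (0.98%, against 5.42%), 6.86% in all against 11.6%. The median log2 ratio of high over low gainers was -0.08 over the 102 genes and 0.03 over all tested probes, and 57.8% of the genes lay below 0, against 45.9% of probes. Without high gainer array 3 the median of the 102 genes was -0.03. Array by array it did not separate the pools: the median deviation of these genes from their means was -0.04, 0.03 and -0.05 on the high gainer arrays and 0.06, 0.06 and -0.03 on the low gainer arrays. The size of the differences was that of any probe, with a median absolute log2 ratio of 0.19 for these genes and 0.20 for all probes. None of these shares was tested against the background.

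**Figure D1:**
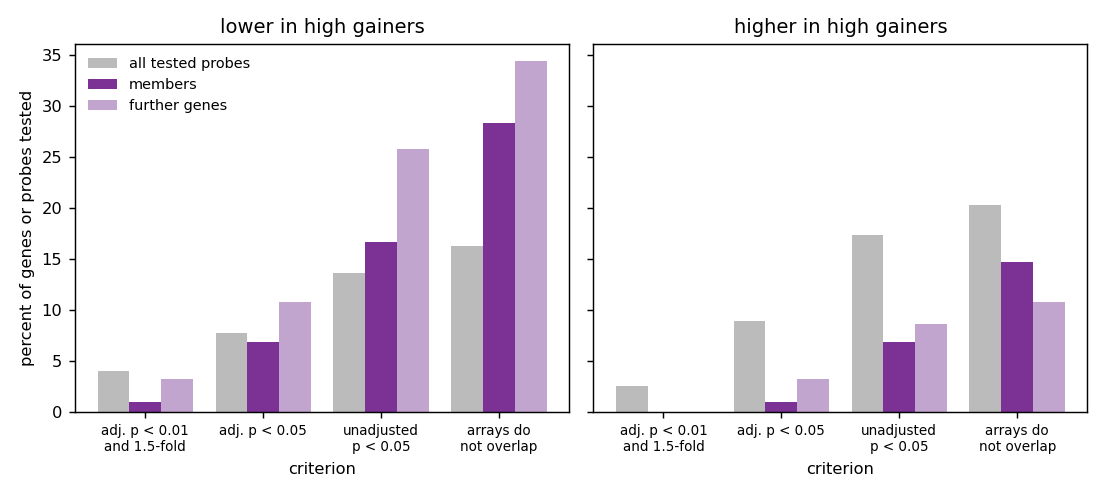
Percent of genes or probes (vertical axis) past each rule (horizontal axis), in each direction, for the 102 cell cycle and replication genes, the 93 further cell cycle genes and all 15821 tested probes. The share of the 102 genes lower in high gainers is above that of all probes for arrays that do not overlap (28.4% against 16.3%) and below it for calls (0.98% against 3.99%), while the shares higher in high gainers lie below those of all probes under each rule shown.

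Names cover more than division. Of the 102 tested genes, 32 matched by name but were grouped under other roles. Among them are cyclins and kinases of transcription (Ccnt1, Cdk9, Ccnl1) and Cdk-like kinases of signaling (Cdk14, Cdk17, Cdk18). The other 70 were grouped under roles in the cycle itself, and held every gene at an adjusted limma p below 0.05. The split is coarse. The 32 include Ccnh, which also acts in the activation of other Cdks. The 70 include Mad2l2, which acts in DNA repair, and Rrm2b, the subunit for resting cells. Their median log2 ratio was -0.09, beside -0.05 for the 32. The grouping by role was revised after the values had been seen.

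Myc, a transcription factor that drives growth and entry into the cycle, gave signals of 15797, 17374 and 14211 on the 3 high gainer arrays and 28808, 28034 and 27229 on the low gainer arrays. Its means of 15794 ± 1582 (SD, n = 3 arrays) and 28024 ± 790 (SD, n = 3 arrays) lay far apart, and no arrays overlapped. Myc was 1.78-fold lower in high gainers, a log2 ratio of -0.83 with a standard error of 0.11 and a 95% interval from -1.08 to -0.59 (adjusted p = 0.00221, limma). The call was lost when high gainer array 1, low gainer array 2 or low gainer array 3 was left out, with adjusted p of 0.0148, 0.0108 and 0.0106.

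E2f2, an activating E2F, showed the next lowest ratio of the transcription group. Its signals were 13887, 11255 and 15021 in high gainers and 23665, 20233 and 20447 in low gainers. The arrays of the pools did not overlap, and the gene was 1.61-fold lower (adjusted p = 0.0142, limma), a log2 ratio of -0.69 with a standard error of 0.14. E2f2 passed the rule when the dimmest 33.3% of probes was left out (adjusted p = 0.00446).

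E2f4, a repressor E2F, was also lower on every high gainer array, with 38664, 45106 and 39722 against 49732, 49878 and 51220, but by 1.22-fold and with an adjusted p of 0.0881. The repressor E2f6 lay the other way, at 104411 to 113809 in high gainers and 93050 to 103195 in low gainers (log2 0.16, adjusted p = 0.298). For E2f5 and the pocket protein Rbl1 the arrays overlapped, with log2 ratios of -0.02 and 0.01 and intervals from -0.35 to 0.31 and from -0.28 to 0.30. The pocket protein Rbl2 lacked a value on low gainer array 2 and gave 8709, 8749 and 6974 in high gainers against 11394 and 8571. Rb1 had values on 4 arrays, at 2110 and 2905 in high gainers and 1991 and 2241 in low gainers. Rb1 and Rbl2 were not tested in the main comparison. The transcription group thus held the single call, beside members with ratios near 0.

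**Figure D2:**
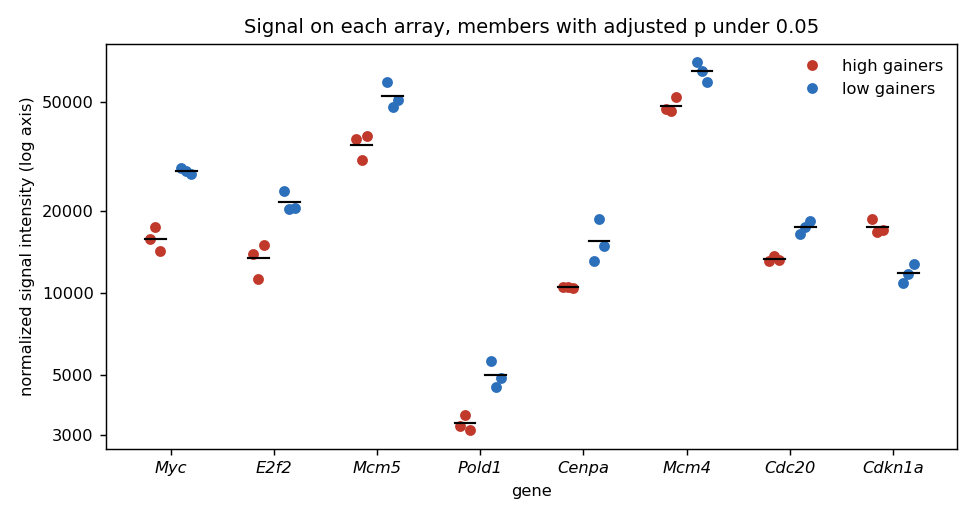
Normalized signal intensity (vertical log axis, arbitrary units) on each array by gene (horizontal axis), high gainers beside low gainers, with points for the 3 arrays of a pool and a bar at their mean, for the 8 genes with an adjusted p below 0.05. The Myc points lie between 14211 and 17374 in high gainers and between 27229 and 28808 in low gainers, and Cdkn1a is the gene whose high gainer points lie above, between 16678 and 18705.

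D cyclins carry growth signals into the cycle, and their signals overlapped between the pools. Ccnd1 gave 139835, 124468 and 155369 in high gainers and 156520, 140082 and 135270 in low gainers, a log2 ratio of -0.04 with an interval from -0.32 to 0.23. Ccnd2 and Ccnd3 had log2 ratios of 0.12 and 0.04, with intervals from -0.23 to 0.46 and from -0.32 to 0.40. Cyclin E1, which acts with Cdk2 at the start of DNA synthesis, was slightly lower on every high gainer array (Ccne1, 5845 to 6231 against 6394 to 7163, log2 -0.19, adjusted p = 0.22).

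The cyclins of DNA synthesis and mitosis were dim. Ccna2 gave 4591, 5101 and 3728 in high gainers and 6100, 4625 and 5253 in low gainers, and these ranges overlapped (log2 -0.25, adjusted p = 0.315). Ccnb2 gave 3883, 4319 and 2726 against 4967, 4571 and 4468. Its pools did not overlap, but the interval from -0.79 to 0.02 held 0 (log2 -0.38, adjusted p = 0.182). Ccna1, Ccnb3 and Ccnf had no value on any array.

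Of the kinases that drive the cycle, only Cdk4 and Cdc7 could be tested. Cdk4, the partner of the D cyclins, gave 53141, 67187 and 56818 in high gainers and 48873, 63559 and 61085 in low gainers (log2 0.03, interval -0.30 to 0.36). Cdc7, which fires licensed origins, was dim and overlapped (log2 -0.18, interval -0.77 to 0.42). Cdk1, the mitotic kinase, was blank on all 6 arrays. Cdk6 gave 896 and 1787 on 2 high gainer arrays and 2148, 1722 and 1095 on the low gainer arrays.

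Among the Cdk inhibitors, Cdkn1a showed the largest log2 ratio. This inhibitor, a target of p53, holds cells before DNA synthesis. Its signals were 18705, 16678 and 16935 in high gainers and 10809, 11747 and 12727 in low gainers, without overlap. The gene was 1.48-fold higher (log2 0.57, standard error 0.10, interval 0.32 to 0.81, adjusted p = 0.0109, limma), just short of both thresholds of the call. Cdkn2b, an inhibitor of Cdk4 and Cdk6, gave 84419 to 90297 against 70578 to 72684, which was 1.21-fold higher and also without overlap (adjusted p = 0.0715). Cdkn2d and Cdkn1b had log2 ratios of -0.27 and -0.14 (adjusted p of 0.188 and 0.721), and their pools overlapped. No inhibitor was called, and 2 of the 4 were higher at an unadjusted limma p below 0.05, as were 17.4% of all probes.

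None of the 12 tested genes of origin licensing and firing was called, where 6.5% of all probes were. Of these genes 6 lay below 0 and 6 above. At an unadjusted limma p below 0.05, 2 were lower and 1 was higher, beside 13.6% and 17.4% of all probes. Mcm5 gave 36675, 30727 and 37475 in high gainers and 59225, 48181 and 50947 in low gainers, so that the pools were well apart. It was 1.51-fold lower (adjusted p = 0.0185, limma), a log2 ratio of -0.59 with a standard error of 0.13, and was called when the dimmest 33.3% of probes was left out (adjusted p = 0.00636). Mcm4 gave 47144, 46355 and 52305 against 70118, 65461 and 59397, 1.34-fold lower and again without overlap (log2 -0.42, adjusted p = 0.0362). For Mcm6, another subunit of the same ring, the pools overlapped slightly, at 14795 to 17643 against 17424 to 20046 (log2 -0.20, interval -0.46 to 0.06). Mcm2 had no value on high gainer array 3 and gave 1922 and 1130 against 2260, 2058 and 2168.

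The origin recognition genes lay near 0. Orc2, Orc3, Orc4, Orc5 and Orc6, which mark origins, had log2 ratios from -0.17 to 0.24, and none had an adjusted p below 0.275. Cdc6, which loads the Mcm ring, was higher on every high gainer array, at 4701, 6030 and 4686 against 4390, 3675 and 3842 (log2 0.37, adjusted p = 0.111), opposite in sign to Mcm4 and Mcm5. Cdc45, Gins3 and Gins4, which complete the active helicase, had log2 ratios of 0.06, 0.19 and 0.02. Cdt1, which loads the ring together with Cdc6, lay the same way as Mcm4 and Mcm5 (log2 -0.86). The difference between Cdc6 and the Mcm genes was not tested.

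At the replication fork, Pold1, the catalytic subunit of polymerase delta, was lowest in high gainers. It gave 3232, 3564 and 3117 against 5585, 4502 and 4870, without overlap and within the dimmest 33.3% of probes (1.51-fold lower, log2 -0.59, standard error 0.12, adjusted p = 0.0138, limma). Pold2, an accessory subunit, gave 32003 to 35040 against 39318 to 41691 (log2 -0.26, adjusted p = 0.102), and Pole2, a subunit of polymerase epsilon, 4266 to 6128 against 7031 to 8000 (log2 -0.50, adjusted p = 0.0766). Neither overlapped. Rfc2 of the clamp loader was lower on all high gainer arrays too (log2 -0.23, adjusted p = 0.149). Pcna, the sliding clamp itself, was equal in the 2 pools, at 124754, 152655 and 136771 against 136458, 136841 and 138090 (log2 0.00, interval -0.24 to 0.25). Pole3, a histone-fold subunit, had the highest ratio of this group (log2 0.20, adjusted p = 0.221). Of these 11 genes 6 were lower without overlap, where 16.3% of all probes were, and 1 was higher, where 20.3% were.

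None of the 3 tested genes of nucleotide supply had an adjusted limma p below 0.209. Rrm1 and Rrm2, the subunits of the ribonucleotide reductase that serves DNA synthesis, had log2 ratios of 0.10 (interval -0.13 to 0.33) and -0.33 (interval -0.94 to 0.29). Rrm2 was low on high gainer array 3, at 3285, against 6708 and 6040 on the other two. Rrm2b, the subunit for resting cells, gave 52438 to 53748 against 43626 to 49599, higher on every high gainer array (log2 0.19, adjusted p = 0.209). Thymidylate synthase had a value on a single array (Tyms, 4135 on high gainer array 3), as did thymidine kinase (Tk1, 720 on high gainer array 2).

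Of the 9 tested mitotic kinases and phosphatases 5 were among the dimmest 33.3% of probes, and 3 did not overlap between the pools, as 36.6% of all probes did not. Aurka, which builds the spindle poles, gave 3831, 4648 and 3494 in high gainers and 7241, 6496 and 4237 in low gainers (log2 -0.56, adjusted p = 0.121). Low gainer array 3 lay among the high gainer values. Aurkb and Plk1 had log2 ratios of -0.13 and -0.24 (adjusted p of 0.452 and 0.198). Cdc25a, a phosphatase that activates Cdk2, gave 11203 to 12924 against 13211 to 17415 without overlap (log2 -0.36, adjusted p = 0.101). Plk4, which controls centriole duplication, was higher on every high gainer array (log2 0.33, adjusted p = 0.111). Plk2, a Polo-like kinase that responds to stress, had the highest ratio of the group with overlapping arrays (log2 0.36, interval -0.11 to 0.84).

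Cdc20, the activator of the anaphase promoting complex, had tight replicates at 13069, 13639 and 13130 in high gainers and 16481, 17474 and 18314 in low gainers. It was 1.31-fold lower, without overlap (log2 -0.39, standard error 0.09, adjusted p = 0.0269, limma). The checkpoint protein Mad2l1, which binds Cdc20, lay the same way at 13875 to 14607 against 16136 to 18512 (log2 -0.27, adjusted p = 0.104). Core subunits of the complex did not: Cdc16 and Cdc23 had log2 ratios of 0.14 and 0.04 (adjusted p of 0.504 and 0.83). Birc5, of the chromosomal passenger complex, and the checkpoint kinase Bub1b had log2 ratios of -0.22 and -0.26 (adjusted p of 0.50 and 0.22). Mad2l2, which acts in DNA repair, had the highest ratio of the group (log2 0.23, adjusted p = 0.234). Top2a, which untangles replicated DNA, gave 3704, 4583 and 3855 against 4745, 5079 and 4363 (log2 -0.23, adjusted p = 0.242).

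Centromere proteins lay on both sides of 0. Cenpa, the histone H3 variant of centromeres, gave 10495, 10495 and 10418 in high gainers and 13076, 18688 and 14793 in low gainers. It was 1.47-fold lower (log2 -0.55, standard error 0.14, adjusted p = 0.0354, limma). Cenpb, which binds centromeric repeats, was opposite, at 26194, 24337 and 19085 against 17059, 11688 and 16317. Its 1.55-fold higher signal had an adjusted p of 0.0543 (log2 0.63, standard error 0.18). Cenpt, which links the centromere to microtubule-binding proteins, was likewise higher on every high gainer array (log2 0.42, adjusted p = 0.0536). The other 5 tested Cenp genes had log2 ratios between -0.15 and 0.11.

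**Figure D3:**
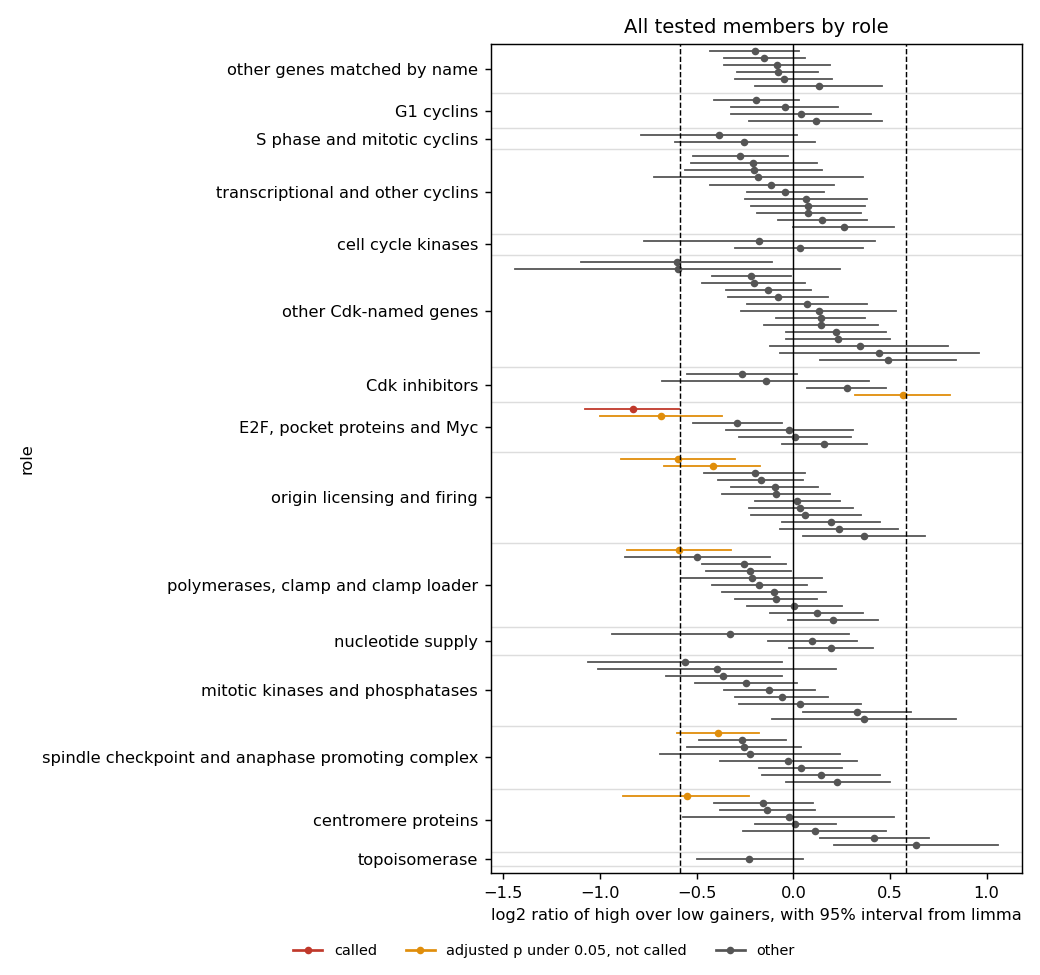
Log2 ratio of high over low gainers (horizontal axis) for each of the 102 tested genes, grouped by role (vertical axis), with the 95% interval from limma, in red for the call and orange for other genes with an adjusted p below 0.05. Dashed lines mark 1.5-fold. The Myc interval ends at -0.59, and most other intervals cross 0 and stay within the dashed lines.

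The 32 genes grouped under other roles held no call, where 6.5% of all probes were called. At an unadjusted limma p below 0.05, 3 were lower and 1 was higher, beside 13.6% and 17.4% of all probes. Cdk14, a kinase of Wnt receptor signaling, had the highest ratio, at 5608, 7409 and 5684 against 3822, 4546 and 4913 (log2 0.49, adjusted p = 0.0661). Cdk17 had the lowest, at 3492, 4243 and 2788 against 4547, 6921 and 4593 (log2 -0.60, adjusted p = 0.10). Both were dim and neither overlapped. Ccnl1, a cyclin of RNA splicing, was lower on every high gainer array (log2 -0.28, adjusted p = 0.124), and Ccnh, the partner of Cdk7 in transcription and in the activation of other Cdks, was higher on every one (log2 0.26, adjusted p = 0.163).

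Of the 132 genes, 30 had no value on at least 1 array and were not tested. All 6 arrays were blank for 9 of them, 5 had values in 1 pool only, and 16 had values in both. Blanks were most frequent on the arrays with the fewest values: high gainer array 3, with 18018 probes, lacked 26 of the 30 genes and low gainer array 2, with 18444, lacked 23, while the other arrays lacked 15 or 16. Bub1, Cdk6, Cdkn2a, Cenph, Cenpm and Mcm2 had values on 3 low and 2 high gainer arrays, and each was blank on high gainer array 3. Cenph was the most distinct of them, at 3101 and 3109 in high gainers and 4516, 4663 and 4525 in low gainers. A fit over probes with at least 2 values a pool, which drops the blank, gave Cenph a log2 ratio of -0.56 (adjusted p = 0.021, limma). Such a fit added 10 of the 30 genes and called none of them, where it called 5.2% of the 17810 probes tested. Only 1 of the 10 had an unadjusted limma p below 0.05, beside 31% of all probes in the main comparison. E2f1, Ccnb1, Cdk2, Cdkn2c, Mcm3, Mcm7 and Mki67 were not analysed here.

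Promoter sequences were taken from RefSeq (build GRCm38.p6) for 86 of the 102 tested genes, as 101 windows of 300 bases from 250 before to 50 after a start. Motifs of cycle genes were searched on both strands: the E2F site as TTTGGCGC, TTTCCCGC, TTTGCCGC or TTTCGCGC, the cell cycle homology region (CHR) as TTTGAA, the CCAAT box as CCAAT, and the E-box bound by Myc as CACGTG. An E2F form stood in 14 windows of these genes (13.9%), against 2.26% of all 32851 windows. The shares were 20.8% against 17.9% for CHR, 48.5% against 37.4% for CCAAT and 7.92% against 7.15% for the E-box. The median log2 ratio was -0.17 for the 13 genes with an E2F form and -0.06 for the others, and -0.18 and -0.05 for genes with and without CHR. For the E-box it was 0.08 with and -0.09 without, and for CCAAT -0.10 with and -0.05 without. Genes with an E2F form lay on both sides of 0, from E2f2 (-0.69) and Mcm5 (-0.59) to Cdc6 (0.37) and Cenpb (0.63). A match of letters is a description and not a bound site.

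Of the 8 genes with an adjusted limma p below 0.05, 6 had a window, while Myc and Mcm4 had none. Sequences are shown for those of the 6 with an E2F or CHR match. They were chosen by adjusted p and not by the size of the ratio. Mcm5 is shown with its 250 bases before the start (chr8:75109259-75109508, plus strand), with 2 overlapping E2F matches on opposite strands in capitals. Stretches of 30 bases are shown for the others, with the match in capitals: an E2F form in E2f2 (chr4:136172294-136172323, plus strand) and in Pold1 (chr7:44548766-44548795, minus strand, matched as the reverse complement), and CHR in Cdc20 (chr4:118437344-118437373, minus strand) and in Cenpa (chr5:30666890-30666919, plus strand). The matches printed for E2f2, Pold1 and Cenpa lay after or across the start. E2f2 also had a CHR match in another window (chr4:136180739-136180768, plus strand), which is not printed.
Mcm5: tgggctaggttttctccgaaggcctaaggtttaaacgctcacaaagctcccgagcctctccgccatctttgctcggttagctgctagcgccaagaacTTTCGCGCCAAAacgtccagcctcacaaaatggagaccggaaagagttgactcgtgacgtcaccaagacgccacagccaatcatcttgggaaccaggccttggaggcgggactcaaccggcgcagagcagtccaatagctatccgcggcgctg
E2f2: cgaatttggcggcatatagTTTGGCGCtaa
Pold1: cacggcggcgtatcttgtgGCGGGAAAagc
Cdc20: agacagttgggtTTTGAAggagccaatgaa
Cenpa: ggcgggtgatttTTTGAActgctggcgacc

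A second list held genes of the same processes that the rule does not name: replication factors, spindle and cytokinesis proteins, condensins and histone suppliers, repair enzymes and regulators of the resting state. Of its 127 genes on the array 93 were tested, and 3 were called lower and none higher (3.23%, against 6.5% of all tested probes). The analysis of variance of the methods, unadjusted, called 5 lower (5.38%, against 4.29%) and none higher (against 3%). At an unadjusted limma p below 0.05, 24 were lower (25.8%, against 13.6% of all probes) and 8 were higher (8.6%, against 17.4%). All 3 high gainer arrays were lowest for 32 of these genes (34.4%, against 16.3%) and highest for 10 (10.8%, against 20.3%). The median log2 ratio was -0.08.

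Cdt1, which loads the Mcm ring together with Cdc6, gave 7939, 7029 and 5833 in high gainers and 13687, 11288 and 12596 in low gainers, a 1.81-fold fall (log2 -0.86, standard error 0.14, adjusted p = 0.00667, limma). It loads the Mcm4 and Mcm5 products, which lay the same way, while its partner Cdc6 lay the other way (log2 0.37, adjusted p = 0.111, limma). Cdca7, a Myc target that serves chromatin remodeling, gave 2642, 2853 and 2413 against 5090, 4959 and 4425 and was called 1.83-fold lower (adjusted p = 0.00204). Btg2, which restrains division, gave 93433, 89003 and 95007 against 143442, 165436 and 150335, also a fall, of 1.65-fold (adjusted p = 0.00282). Btg2 acts against the cycle where the other two serve it. Leaving out 1 array left between 0 and 2 of these 3 calls. Cdt1 was called in none of these 6 fits (adjusted p of 0.0124 to 0.0268), Btg2 was called without high gainer array 3 or low gainer array 1 alone, and Cdca7 was not called without high gainer array 1 (adjusted p = 0.0135) or low gainer array 2 (adjusted p = 0.0106).

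Others of the second list passed an adjusted limma p of 0.05 without being called, 7 lower and 3 higher. With the calls, 10.8% of the list was lower at this p and 3.23% higher, against 7.72% and 8.87% of all probes. Smc4, a condensin subunit that packs chromosomes, gave 19594, 22618 and 19000 against 34687, 29180 and 28921 (1.51-fold lower, adjusted p = 0.0147). Btg1, a relative of Btg2, was 1.60-fold lower at 91696 to 98456 against 134814 to 180423 (adjusted p = 0.0122). Dck, which salvages deoxynucleosides, was dim and gave 3333 to 3580 against 4491 to 6024 (adjusted p = 0.0196, limma). Incenp, the scaffold of the Aurora B complex, gave 10386 to 10783 against 12656 to 13645 (adjusted p = 0.049, limma). The 3 higher genes were Hmgn2, Gas1 and Cit. Hmgn2, a nucleosome-binding protein, gave 316367 to 349485 against 252207 to 261237 (adjusted p = 0.0395, limma). The growth arrest gene Gas1 gave 91926 to 105906 against 71223 to 80502 (adjusted p = 0.0479, limma). Cit, a kinase of cytokinesis, was dim and gave 1088 to 1823 against 659 to 910 (adjusted p = 0.0363, limma).

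**Figure D4:**
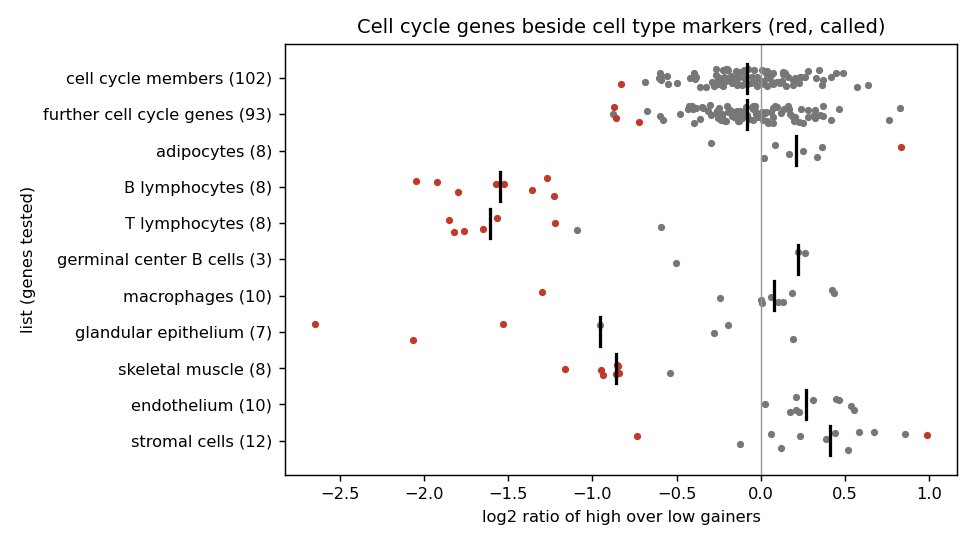
Log2 ratio of high over low gainers (horizontal axis) for the tested genes of each list (vertical axis), with a point per gene, red where called, and a bar at the list median. The cell cycle lists centre on -0.08, the B and T lymphocyte lists on -1.55 and -1.61, and the adipocyte list on 0.21.

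The tissue held its defining transcripts, where all 8 adipocyte markers named on the array had values on every array, with a summed signal of 3835950 to 4019848 in high gainers and 3107391 to 3632058 in low gainers. Lep alone of these was called, higher in high gainers at 825649 to 1011527 against 471078 to 547516, and none was called lower. In a bulk sample, fewer cells of a type and less RNA per cell cannot be told apart. Several lists of markers of other cells had medians farther from 0 than the cycle genes had. All 8 tested B lymphocyte markers were called lower in high gainers, with a summed signal of 156545 to 165546 against 497533 to 506323, and 6 of 8 T lymphocyte markers were, with 83003 to 97748 against 251610 to 287344. Skeletal muscle markers were called lower for 7 of 8, with a summed signal of 1103494 to 1164899 against 2039128 to 2243015, and glandular epithelium markers for 3 of 7, with 91646 to 131618 against 140454 to 168882. Most of this last sum was Cldn4, which was not called, at 64343 to 93118 against 72020 to 102821. The 3 calls were Krt18, Cdh1 and Krt8, lower by 6.26-fold, 4.19-fold and 2.89-fold.

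Germinal center B cells, which divide fast, had 3 tested markers, none called by limma or by the analysis of variance (median log2 0.22, with 1 lower and 1 higher at an unadjusted limma p below 0.05), and their marker Rgs13 was blank on all 6 arrays. The 3 markers differed in sign, with log2 ratios of -0.5 for Bcl6, 0.22 for Fas and 0.26 for S1pr2. Their median therefore does not tell whether these cells differed. Macrophage markers were called lower for 1 of 10 and higher for none (median 0.08), endothelial markers for none of 10 by limma (median 0.27, with 5 higher at an unadjusted limma p below 0.05), and stromal markers lower for 1 and higher for 1 of 12 (median 0.41, with 8 higher and 1 lower at an unadjusted limma p below 0.05). No marker gene was itself one of the cycle genes. The part of these cell types in the signals of Myc, E2f2, Mcm5, Cdt1 and the other genes named here was not tested.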

How the data were processed

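RNA from 8 high gainers and from 8 low gainers was pooled, and each pool was measured on 3 arrays with chemiluminescent detection. The deposited intensities are linear and had been quantile normalized by the authors, and cells without a value were left blank. Per the methods, features passed a filter on signal to noise and spot flags. Arrays gave 18018 to 20605 probes with values, and their number limits the precision. Correlations of log2 values were 0.988 to 0.994 within a pool and 0.972 to 0.980 between pools.

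Log2 intensities of the 15821 probes with values on all 6 arrays were fitted with limma 3.58.1 in R 4.3.3 (lmFit, eBayes), with Benjamini-Hochberg adjustment over all of them. Calls needed an adjusted p below 0.01 and 1.5-fold. The methods' analysis of variance used 0.01 and 1.5-fold with no adjustment stated, and was run as an alternative, unadjusted and adjusted. The brightest probe stood for a gene. The summed signals of marker lists add the signals of different probes, so that the brightest markers weigh most in them. The platform annotation gave 1 symbol to 14411 probes, several to 247 and none to 18354. Motifs were counted in RefSeq promoters of GRCm38.p6. The fit was tested on simulated data.

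The members and lists were chosen with earlier results of these data known, and the roles were regrouped after values had been seen. Genes named were every call, the highest and the lowest ratio of each role and a fixed set of cycle genes, not all of them printed. The wider threshold (adjusted p of 0.05), the other genes of the second list, the genes with blanks and further members of a role were chosen after their values were seen. Alternatives covered normalization, dim probes, an offset, the variance model, the thresholds, the test, the replicate block, each array left out, several probes per gene and blanks.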

Additional observations from a re-analysis of the deposited data

How the results depend on the processing

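Of 1805 pairs of a tested member and an alternative, 5 lost a call and 8 gained one. The sign changed in 37 pairs of 21 members, none of them called, and in 3 pairs by more than the standard error of the ratio. The single lower call among the members became 3 without the dimmest 33.3% of probes, 2 with an offset before the log, 3 with an intensity trend and robust estimation, 4 with the methods' analysis of variance unadjusted and 0 with it adjusted, and 0 at a 2-fold threshold. Over all probes these settings called 7.92%, 6.81%, 7.67%, 7.29%, 0.992% and 3.16%, against 6.5%. Leaving out each array gave 0 to 1 call (2.99% to 5.13% of all probes), and medians from -0.09 to -0.03, the latter without high gainer array 3. For the second list the 3 lower calls became 5 with the trend, 5 with the unadjusted and 0 with the adjusted analysis of variance, 0 at 2-fold and 0 to 2 with each array left out. Its median was -0.12 without dim probes and ran from -0.11 to -0.04 with each array left out. Counts of higher calls were 0 in every fit run. The cause of these shifts was not tested.

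With the array number as a replicate block, Myc stayed called (adjusted p = 0.00899, limma) and the second list kept 1 call. This setting called 3.91% of all probes. Deviations of arrays with the same number correlated at 0.04, -0.11 and 0.27 between pools, so the numbers were not read as a pairing.

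The sign changed by more than the standard error for these genes, none of them called. With each array left out, log2 ratios ran from -0.15 to 0.13 for Bub3, -0.34 to 0.09 for Cdkn1b, -0.28 to 0.22 for Cenps, -0.35 to 0.10 for Cdca3, -0.30 to 0.37 for Lin52, -0.13 to 0.21 for Max, -0.23 to 0.04 for Topbp1, -0.27 to 0.06 for Pkmyt1 and -0.10 to 0.20 for Rad51ap1, and the mean over probes gave -0.09 for Timeless. Dim genes are limited by signal over background: 31 of the 102 members lay in the dimmest 33.3% of probes.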

Other observations

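Among the second list, H2ax, the histone variant that marks broken DNA, had the lowest log2 ratio (-0.88) and was not called (adjusted p = 0.263, limma). Its signals were 27609, 26440 and 25854 in high gainers and 32920, 117928 and 30118 in low gainers, so that the size of the ratio came from low gainer array 2.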
